A study of Oryza sativa Japonica Group with 38 samples.

Results

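A group of 6 loci in the deposited list of annotated long noncoding RNAs of rice (Oryza sativa, japonica) share a length of 1811 nt, and they match the RNA of the small ribosomal subunit, 18S rRNA, in size and place. They were chosen by 2 features that involve no measured level: an EPlOSAG identifier and an exon length (end minus start) of 1811 nt. The rule finds 6 of the 3722 annotated genes, of which 1849 carry EPlOSAG identifiers, and 6 of the 7231 genes of both deposited lists together. Of these loci, 5 lie in tandem on the + strand at the start of chromosome 9. In the coordinates of IRGSP-1.0 as deposited these are EPlOSAG00000008521 (3625 to 5436), EPlOSAG00000008520 (11553 to 13364), EPlOSAG00000008519 (19481 to 21292), EPlOSAG00000008518 (27409 to 29220) and EPlOSAG00000008517 (35337 to 37148). Their starts are 7928 nt apart each time, so 6117 nt of each unit lie outside the copy. The remaining locus, EPlOSAG00000008516, lies alone on the + strand of chromosome 2 (28719356 to 28721167). All 6 have 1 exon, and the authors classed all 6 as bimorphic (a class for both poly(A)+ and poly(A)- RNA) and as nuclear.

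In plants the ribosomal RNA genes stand in long tandem arrays. RNA polymerase I transcribes each unit in the nucleolus into a single precursor, from which the 18S, 5.8S and 25S rRNAs are cut, and spacers part the units. Mature rRNA carries no long poly(A) tail, makes up most of the RNA of a cell and sits mainly in cytoplasmic ribosomes, which is why libraries of other RNAs are usually depleted of it. Short rRNA fragments are a common part of small RNA libraries.

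The study sequenced 38 libraries from 9 conditions to catalogue long noncoding RNAs under stress and by RNA fraction. Plants grew on medium for 2 weeks, in days of 12 h at 28 °C and nights of 12 h at 22 °C. Seedlings were untreated, or exposed to cold (4 °C), drought (drying in air), heat (50 °C), high salt (300 mM NaCl) or high light (50000 lux). Untreated leaves, panicles and roots were the other 3 conditions. The labels give an age of 2 weeks for all of them, panicles included. The labels name no genotype beyond japonica, and no transgene or pooling. Each condition gave a poly(A)+, a poly(A)- and a small RNA library of whole cells and a nuclear library of total RNA, each a single library, apart from drought, for which the labels give 2 poly(A)+ and 2 poly(A)- libraries but the files 1 column for each kind. Per the labels' protocols, ribosomal RNA was removed in 2 rounds with a plant kit before oligo(dT) beads parted the poly(A)+ from the poly(A)- RNA. That step does not by itself show how far the nuclear and small RNA libraries were depleted.

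The levels below are therefore what was left of these loci after any depletion, and not the rRNA content of the cells. The sources used here do not give how far each library was depleted, so a difference in depletion and a difference in RNA between libraries cannot be told apart. The same holds for fewer cells with a transcript and less of it per cell. Levels are FPKM, fragments scaled to exon length and library size, as deposited, and they were whole multiples of the value of 1 read. Libraries of long RNA (poly(A)+, poly(A)- and nuclear) with an undisputed heading held 24.6 to 105 M reads (M, mega), and small RNA libraries 39.7 to 85.8 M. The lowest of these, untreated nuclear, had 140 of 490 low values at 1 read and none midway between whole reads. The headings of 4 of the 36 columns disagreed between the lists: the read value of the column matched another heading in the other list. These are the 3 long RNA columns of panicles and the poly(A)+ column of leaves. Their values are given apart and enter no main comparison. Exact 95% Poisson intervals on the recovered reads cover counting error only.

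The identity of the loci rests on size and place, since neither deposited list names a product. In the RefSeq table of a newer rice assembly (ASM3414082v1), 511 genes of 1811 nt on chromosome 9 have the rRNA biotype, and 509 of the 510 distances between neighbouring ones are 7928 nt, the spacing of the deposited loci. Of these genes, 510 are followed by rRNA genes of 156 nt and then 3383 nt, the order of a complete unit. A single rRNA gene of 1811 nt stands on chromosome 2 of that assembly, followed by an rRNA gene of 156 nt alone. The deposited end minus start equals the RefSeq length of 1811 nt if the deposited start counts from 0. The build of the table differs from that of the files, so it was used for lengths and spacing only. No sequence of these loci was read, and which bases differ between the copies was not analysed here.

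The 5 tandem copies had nearly the same level within each column. In small RNA their FPKM were identical to every deposited digit in 9 of 9 columns. In long RNA they differed by little: over 27 columns the highest copy lay between 0.36% and 3.24% above the lowest. In untreated seedlings the poly(A)+ levels were 86.4 FPKM for EPlOSAG00000008521, 87.8 for EPlOSAG00000008520, 87.7 for EPlOSAG00000008519, 89.2 for EPlOSAG00000008518 and 86.7 for EPlOSAG00000008517. The first of these rests on 11659 reads, with an interval of 84.9 to 88.0 FPKM. The variance of the reads over the 5 copies, divided by their mean, had a median of 1.02 over the 27 columns, with a range of 0.178 to 2.73. A value of 1 is what separate Poisson counts would give. No copy was always the highest or the lowest. EPlOSAG00000008520 and EPlOSAG00000008519 were each the highest in 6 of the 27 columns and the others in 5 each. The means of the deviations from the average of the copies ran from -0.07% to 0.13%. The sources used here do not say how reads that map to several places were assigned, so the 5 copies are not 5 independent observations, and sums over them may count a read more than once. They are summarised below by their median.

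**Figure D1:**
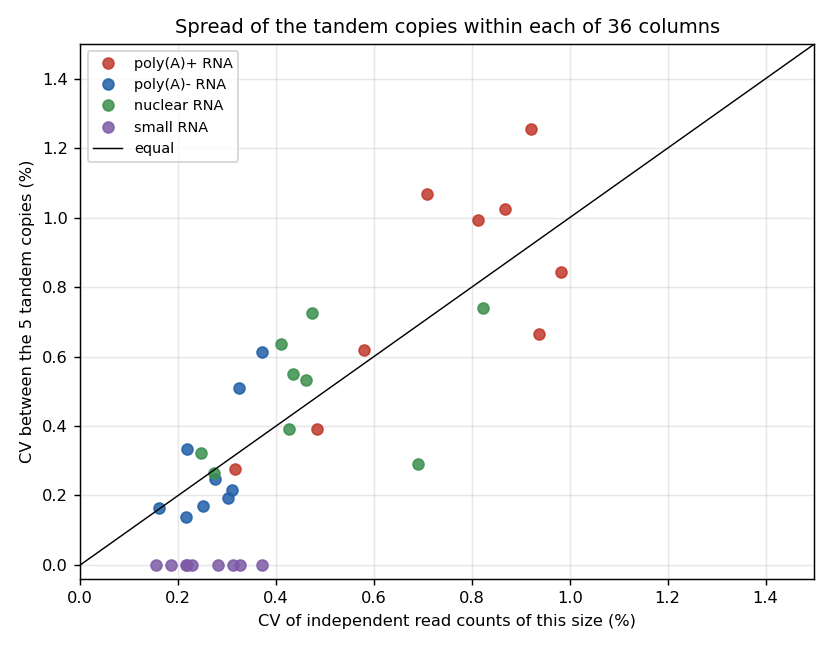
Spread between the 5 tandem copies within each of the 36 columns. The y axis is the coefficient of variation (CV, SD over mean, in %) of FPKM between the copies, the x axis the CV that separate Poisson counts of the same number of reads would have (%), and the line marks equality. Long RNA columns scatter around the line, and the 9 small RNA columns sit at 0.

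As means over conditions, given below by kind of RNA, the loci were lowest in poly(A)+ and highest in small RNA, but single conditions departed from this order. In poly(A)+ RNA the median of the tandem copies was 87.7 FPKM in untreated seedlings, 107 in cold, 97.0 in drought, 308 in heat, 324.5 in high light, 889 in high salt and 69.7 in roots. The chromosome 2 copy was at 100.2, 120.3, 35.3, 292, 309, 882 and 66.7 FPKM in the same order. High salt thus stood apart at the top, heat and high light lay in between, and the other 4 conditions reached 120.3 FPKM at most.

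In poly(A)- RNA the tandem median was 709 FPKM in untreated seedlings, 797 in cold, 659 in drought, 1742 in heat, 829 in high light, 603 in high salt, 1183 in leaves and 1942 in roots. For the chromosome 2 copy the levels were 736, 799, 194, 1712, 835, 572, 1276 and 2069 FPKM in the same order. Roots, heat and leaves were the 3 highest for both, and the lowest was high salt for the tandem copies and drought for the chromosome 2 copy.

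In nuclear RNA the tandem median was 472 FPKM in untreated seedlings, 439.7 in cold, 663 in drought, 567 in heat, 543 in high light, 395 in high salt, 784 in leaves and 155 in roots. On chromosome 2 the levels were 604, 611, 897, 647, 702, 470.0, 848 and 175 FPKM in the same order. Roots stood lowest for both, while they were highest in poly(A)- RNA. High salt was the condition in which the poly(A)+ level of the tandem copies lay above both the poly(A)- and the nuclear level.

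In small RNA each tandem copy was at 1009 FPKM in untreated seedlings, 4648 in cold, 1894 in drought, 1326 in heat, 2492 in high light, 1051 in high salt, 1628 in leaves, 1823 in panicles and 1059 in roots. Those of the copy on chromosome 2 were 1284, 4983, 2571, 1805, 2846, 1377, 1996, 2230.0 and 1459.9 FPKM in the same order. Cold stood apart at the top for both. In heat and in roots the tandem copies were lower in small RNA than in poly(A)- RNA, and small RNA was not tested against the other kinds. Here FPKM divides short reads by the whole 1811 nt, and where along the locus they fall was not analysed here.

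As means over conditions with undisputed headings, the tandem median was 269 ± 294 FPKM in poly(A)+ RNA (SD, n = 7), 1058 ± 517 in poly(A)- RNA (n = 8), 502 ± 188 in nuclear RNA (n = 8) and 1881 ± 1147 in small RNA (n = 9). The chromosome 2 copy had 258 ± 295, 1024 ± 620, 619 ± 226 and 2283 ± 1146 FPKM in the same order. These ranges overlap between kinds, so the comparison within conditions, given further on, carries the difference. Summed over the 6 loci, the recovered reads came to 0.0751% to 0.964% of a poly(A)+ library, 0.634% to 2.14% of a poly(A)- library and 0.172% to 0.863% of a nuclear library. These sums may count a read more than once, so the shares may be too high. In small RNA a single tandem copy had between 0.183% and 0.842% of the reads, and no sum is given because the copies are identical there.

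**Figure D2:**
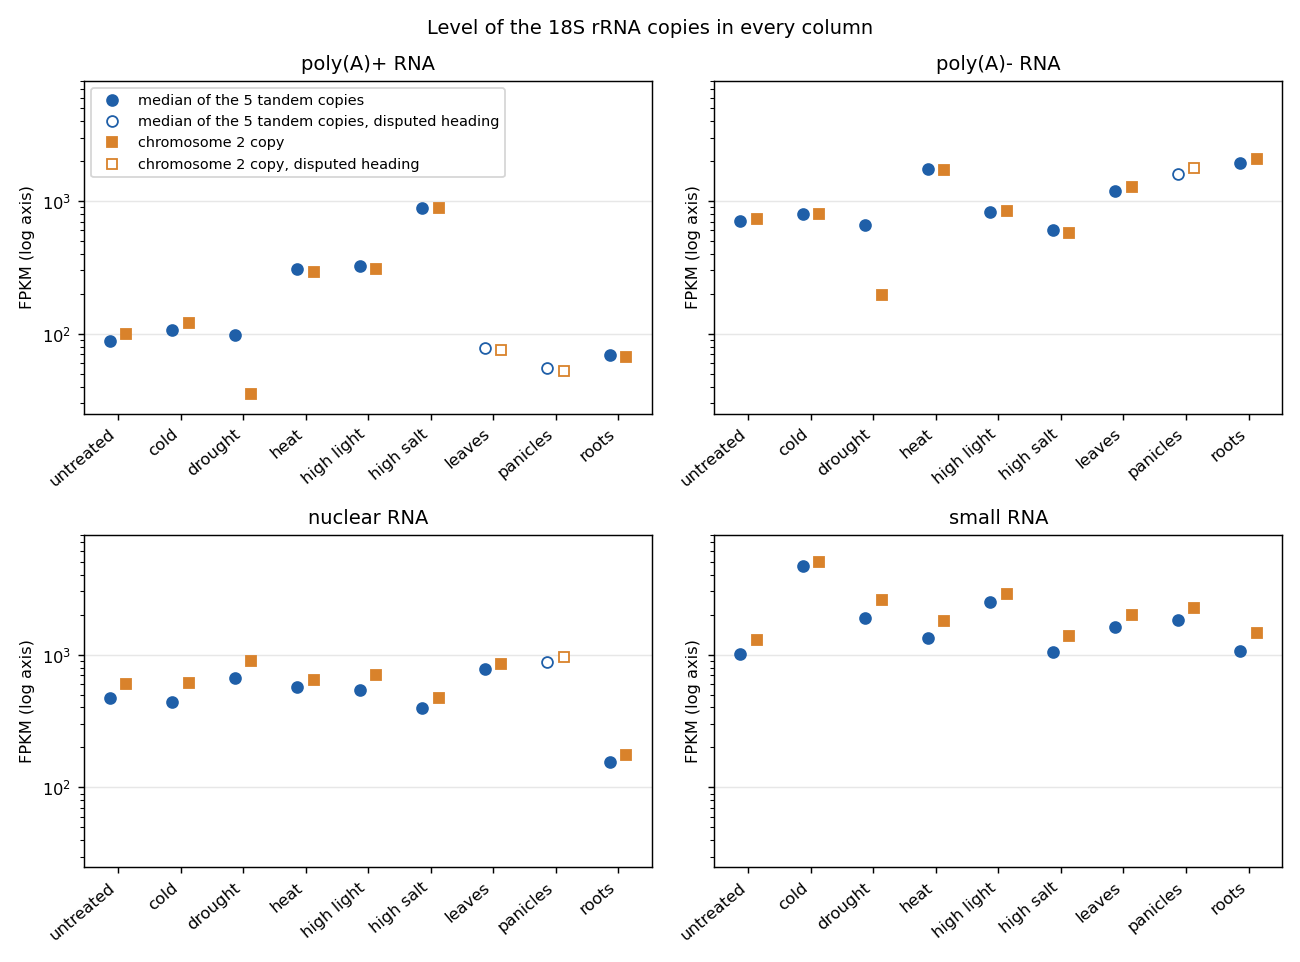
FPKM (log axis) of the 1811 nt loci in all 36 columns, by kind of RNA and condition. Circles are the median of the 5 tandem copies and squares the chromosome 2 copy, open where the column's heading is disputed. Poly(A)+ RNA of high salt (889 FPKM) and small RNA of cold (4648 FPKM) lie far above the other conditions of their kind, and the chromosome 2 copy drops away from the tandem copies in drought poly(A)+ and poly(A)- RNA.

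Measured against all annotated genes, these loci were at the top of the list. In poly(A)- RNA they held ranks 1 to 6 in 8 of 8 conditions and took 82.2% to 96.0% of the reads of the annotated list. In nuclear RNA they held ranks 1 to 6 in 6 of 8 conditions, and in leaves and roots a single other locus, EPlOSAG00000045065, stood above them. In poly(A)+ RNA they held ranks 1 to 6 in heat, high light and high salt, and reached rank 46 at the lowest, for the chromosome 2 copy in drought. Their share of the reads of the annotated list ran from 7.50% in roots to 80.1% in high salt. All these shares are sums over the 6 loci, which may count a read more than once. Ranks between genes are on FPKM, which is per length.

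The chromosome 2 copy did not simply follow the tandem copies. Its FPKM divided by their median lay near 1 in poly(A)+ and poly(A)- RNA, apart from drought, and above 1 in nuclear RNA of 8 of 8 conditions and in small RNA of 9 of 9. Without drought the ratio was 1.02 ± 0.09 in poly(A)+ RNA (SD, n = 6) and 1.02 ± 0.05 in poly(A)- RNA (n = 7). With drought it was 1.23 ± 0.11 in nuclear (n = 8) and 1.26 ± 0.11 in small RNA (n = 9). In drought it was 0.36 in poly(A)+ and 0.29 in poly(A)- RNA, but 1.35 in nuclear and 1.36 in small RNA. The drought chromosome 2 level of 35.3 FPKM in poly(A)+ RNA rests on 3768 reads (interval 34.2 to 36.5) and that of 194 FPKM in poly(A)- RNA on 21294 reads (192 to 197), far from the tandem copies of the same columns. These are also the groups for which the labels give 2 libraries. The sources used here do not say which of them, or what combination, the deposited column holds, and its part in the low ratio was not tested. Over the 23 long RNA columns with undisputed headings, Pearson's r of log2(FPKM + 1) between the chromosome 2 copy and each tandem copy was 0.94. Between tandem copies it was at least 0.9999. These are descriptions, since the columns share libraries and the copies may share reads.

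**Figure D3:**
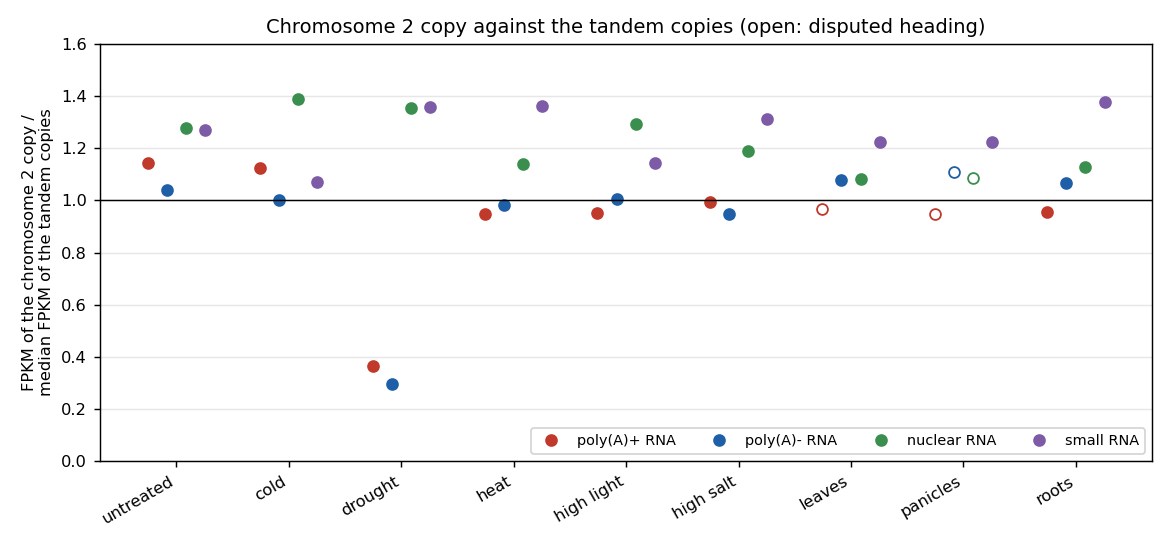
FPKM of the chromosome 2 copy divided by the median FPKM of the 5 tandem copies, in all 36 columns, by condition and kind of RNA (open circles, disputed heading; the line marks equal levels). Drought poly(A)+ (0.36) and poly(A)- RNA (0.29) lie far below the rest, and every nuclear and small RNA point lies above 1.

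Within conditions the loci were more abundant in poly(A)- than poly(A)+ RNA, the opposite of most listed genes. The poly(A)- level of the tandem copies was 8.09 times the poly(A)+ level in untreated seedlings, 7.45 times in cold, 6.79 times in drought, 5.66 times in heat, 2.55 times in high light and 27.9 times in roots. In high salt it was 0.678 times, so this condition alone went the other way. The ratios of the chromosome 2 copy ran from 0.649 in high salt to 31.02 in roots. In limma, fitted to log2(FPKM + 1) with the condition blocked, all 6 loci passed the threshold, a Benjamini-Hochberg adjusted p of at most 0.05 and a difference of at least 2-fold. Of the 2859 genes tested, 4.2% were called higher in poly(A)- RNA, and the median gene had a log2 difference of -1.51.

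The size was nearly equal for all 6. For EPlOSAG00000008521 the level in poly(A)- RNA averaged 1042 ± 556 FPKM, and that in poly(A)+ RNA 269 ± 293 (SD over 7 conditions). On the log2 scale the poly(A)- level lay higher by 2.39 ± 0.60 (SE), in 6 of 7 conditions, at an adjusted p of 1.52e-04 in limma. The other tandem copies had log2 differences of 2.39 (EPlOSAG00000008520), 2.38 (EPlOSAG00000008519), 2.38 (EPlOSAG00000008518) and 2.38 (EPlOSAG00000008517), each in 6 of 7 conditions. For EPlOSAG00000008516, on chromosome 2, the means were 988 ± 661 and 258 ± 295 FPKM and the log2 difference 2.33 ± 0.60 (limma adjusted p = 1.88e-04, 6 of 7 conditions). An exact sign-flip permutation test over the 7 conditions gave a two-sided p of 0.0312 for each of the 6, where the smallest possible is 0.0156. With libraries centred on their median the log2 differences were 3.91 to 3.97, all 6 called in limma. The sign-flip p adjusted over the 18 such tests of this report was 0.0469. Conditions stand in for replicates here. Separate cultures are not stated in the labels, so these p-values reflect only how far the samples at hand differ, part of which may be technical.

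The loci were also higher in nuclear than in poly(A)+ RNA, with less margin. The nuclear level of the tandem copies was 5.38 times the poly(A)+ level in untreated seedlings, 4.11 times in cold, 6.83 times in drought, 1.84 times in heat, 1.67 times in high light, 2.23 times in roots and 0.444 times in high salt. High salt was again the exception. All 6 loci passed the same limma threshold, beside 1.26% of the 2786 genes tested called higher in nuclear RNA and a median log2 difference of -1.69. For EPlOSAG00000008516 the means were 587 ± 223 and 258 ± 295 FPKM (SD, n = 7 conditions), and the log2 difference was 1.76 ± 0.52 (SE, limma adjusted p = 0.00222, higher in 6 of 7 conditions). In its drought columns it had 897 against 35.3 FPKM, a ratio of 25.4, and without drought its log2 difference was 1.29 (limma adjusted p = 0.0176).

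The tandem copies were lower in this difference. Their log2 differences were 1.26 (EPlOSAG00000008521), 1.27 (EPlOSAG00000008520), 1.26 (EPlOSAG00000008519), 1.25 (EPlOSAG00000008518) and 1.25 (EPlOSAG00000008517), with limma adjusted p between 0.0150 and 0.0162 and 6 of 7 conditions higher. Their call was also lost (1 of 6 loci called, the chromosome 2 copy) with no filter on low values, with no condition block and with 9 conditions under the headings of the other list. In these limma fits 6, 1 and 1 loci had an unadjusted p under 0.05. Of all genes they called 29 of 5630, 27 of 2786 and 15 of 3166 higher, against 35 of 2786 in the main fit. With libraries centred on their median all 6 were called, at log2 differences of 3.02 to 3.04 for the tandem copies. The tandem copies lost the call without untreated seedlings (largest adjusted p = 0.062) and without drought (0.0604), and the exact sign-flip permutation test over 7 conditions gave p of 0.0625 to 0.0781 for them, against 0.0312 for the chromosome 2 copy. Whether the chromosome 2 copy differed more than the tandem copies was not tested. Nuclear RNA was labelled as total and the other as whole cell RNA selected for poly(A), so location and poly(A) selection cannot be told apart in this comparison.

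Between nuclear and poly(A)- RNA the tandem copies were lower in nuclear RNA as a mean over conditions. Their nuclear level was 0.666 times the poly(A)- level in untreated seedlings, 0.552 times in cold, 1.005 times in drought, 0.326 times in heat, 0.656 times in high light, 0.655 times in high salt, 0.663 times in leaves and 0.0799 times in roots. Roots were far from the rest, with 155 against 1942 FPKM. In limma the 5 tandem copies passed the threshold, beside 16.8% of the 959 genes tested called lower in nuclear RNA and a median log2 difference of -0.48. For EPlOSAG00000008521 the nuclear mean was 502 ± 188 FPKM, the poly(A)- mean 1060 ± 518 FPKM (SD, n = 8 conditions) and the log2 difference -1.07 ± 0.36 (SE, limma adjusted p = 0.013, lower in 8 of 8 conditions). The log2 differences of EPlOSAG00000008520, EPlOSAG00000008519, EPlOSAG00000008518 and EPlOSAG00000008517 were -1.06, -1.06, -1.07 and -1.06, lower in 7 or 8 of 8 conditions. An exact sign-flip permutation test over the 8 conditions gave p of 0.0078 to 0.0156 for the tandem copies, where the smallest possible is 0.0078. Adjusted over the 18 such tests it was 0.0469 for them. For the chromosome 2 copy the sign-flip p was 0.352. Nuclear RNA was labelled as total and poly(A)- RNA came from whole cells, so location and poly(A) selection cannot be told apart here either.

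The chromosome 2 copy did not pass. Its means were 619 ± 226 and 1024 ± 620 FPKM, its log2 difference was -0.57 ± 0.36 (limma adjusted p = 0.191), and it was lower in 7 of 8 conditions. Drought was the exception, with 897 FPKM in nuclear and 194 in poly(A)- RNA. Without drought its log2 difference was -0.96 (limma adjusted p = 0.0204), still under 2-fold. The calls of the tandem copies lie close to the 2-fold limit. Without roots their differences fell to between -0.69 and -0.70, without heat they were -0.98 to -0.99, and neither fit called any of the 6 (limma, 5 with an unadjusted p under 0.05 in each). None was called either with no filter on low values or with 9 conditions under either set of headings (limma, 5 with an unadjusted p under 0.05 in each). Of all genes, the main fit called 161 of 959 lower in nuclear RNA, that without roots 146 of 888 and that without heat 151 of 924. With no filter it was 0 of 5450, and with 9 conditions 73 of 1195 (annotated headings) and 43 of 1270 (other list). With libraries centred on their median the tandem differences were -0.64 to -0.65, none of the 6 was called and none had an unadjusted p under 0.05.

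**Figure D4:**
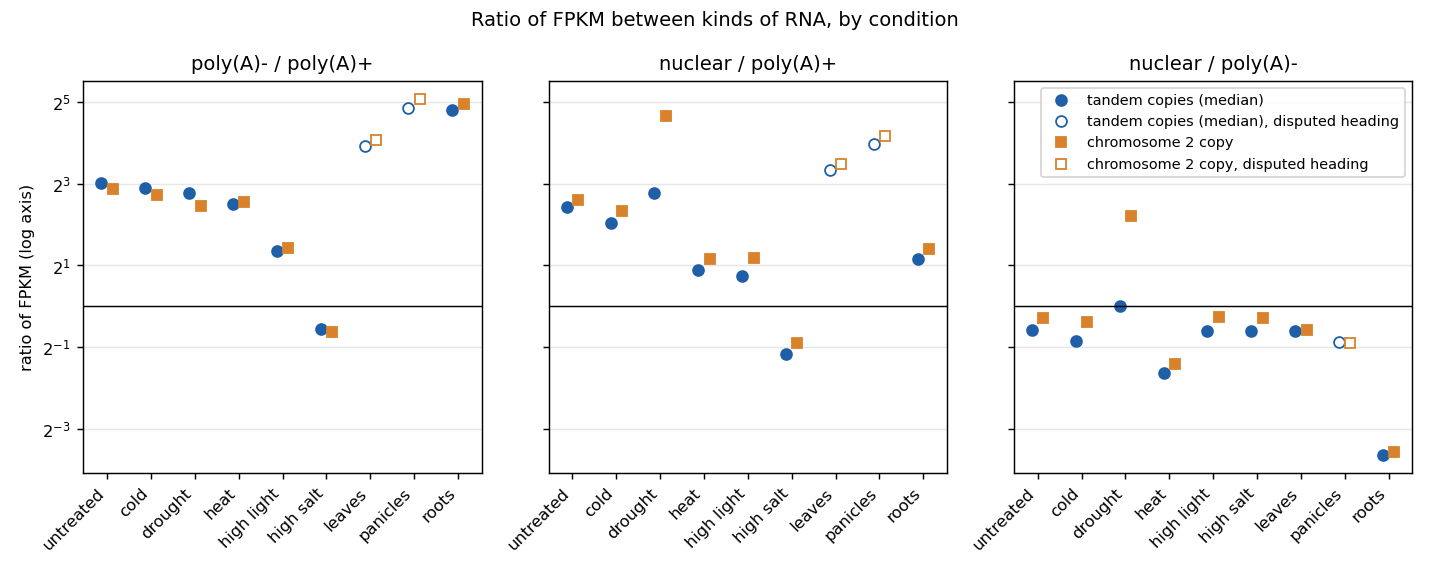
Ratio of FPKM between kinds of RNA within each condition (log axis), for the median of the tandem copies (circles) and the chromosome 2 copy (squares), open where a heading is disputed. The line marks equal levels. High salt is the one condition below the line in poly(A)- and in nuclear against poly(A)+ RNA, and roots have the lowest ratio of nuclear to poly(A)- RNA (0.0799 for the tandem copies).

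Against untreated seedlings, each stress and tissue had 1 column per kind of RNA, so differences are given by size without a test. A locus counted as past the size rule at 2-fold or more on log2(FPKM + 1) where either column reached 1 FPKM. In 27 such comparisons all 6 loci were past it in 8 (7 higher, 1 lower), 1 locus in 3 (each time the chromosome 2 copy in drought), and none in 16. All comparisons of a kind share the 1 untreated library of that kind. Where a count is also given relative to the median of all genes, the share of all genes past the rule was not counted on that footing.

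In poly(A)+ RNA the loci rose past 2-fold in heat, high light and high salt. High salt gave the largest change: the tandem copies went from 87.7 to 889 FPKM (10.1 times) and the chromosome 2 copy from 100.2 to 882 FPKM (8.80 times). For EPlOSAG00000008521 the intervals were 881 to 892 FPKM in high salt and 84.9 to 88.0 in untreated seedlings. All 6 loci were past the rule upward, as were 4.2% of the 2977 genes compared, and the median of those genes moved by -1.17 on the log2 scale. In high light the ratio was 3.70 for the tandem copies and 3.08 for the chromosome 2 copy (6 of 6 loci; 6.35% of all genes compared). In heat it was 3.51 and 2.92 (6 of 6; 12.6%). Cold gave ratios of 1.22 and 1.20 and roots 0.795 and 0.666. None of the 6 was past the rule there, in either direction, where 21.3% and 33.9% of all genes were. In drought the tandem copies were at 1.11 times the untreated level, while the chromosome 2 copy was at 0.353 times, past the rule downward as were 51.4% of all genes. The median of all genes moved by -1.02 in that comparison, and relative to it the 5 tandem copies would be past the rule upward.

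In poly(A)- RNA all 6 loci were past the rule upward in roots and heat. In roots the tandem copies were at 2.74 times the untreated level (1942 against 709 FPKM) and the chromosome 2 copy at 2.81 times, and 49.6% of all genes compared were also past the rule upward. In heat the ratios were 2.46 and 2.33, with 25.2% of all genes. The median gene rose by 0.99 in roots and 0.67 in heat on the log2 scale, and relative to it none of the 6 was past the rule. In high salt, where the poly(A)+ level was highest, the poly(A)- level was 0.850 times (tandem) and 0.777 times (chromosome 2) that of untreated seedlings, against a median gene at 1.08 on the log2 scale. Cold gave ratios of 1.12 and 1.09, high light 1.17 and 1.13 and leaves 1.67 and 1.73. None of the 6 was past the rule in cold, high light, high salt or leaves, where 33.3%, 45.5%, 57.4% and 45.8% of all genes were, in either direction. In drought the tandem copies were at 0.930 times and the chromosome 2 copy at 0.264 times, past the rule downward with 22.4% of all genes.

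In nuclear RNA the stresses left the loci within 2-fold of untreated seedlings. The ratios of the tandem copies were 0.932 in cold, 1.40 in drought, 1.20 in heat, 1.15 in high light and 0.836 in high salt, and those of the chromosome 2 copy 1.01, 1.49, 1.07, 1.16 and 0.779. None of the 6 was past the rule in any of the 5 stresses, where 12%, 12.4%, 30.3%, 7.94% and 10% of all genes were, in either direction. Leaves had ratios of 1.66 and 1.40, also within 2-fold, where 41.7% of all genes were past the rule. In roots all 6 were past it downward, at 0.329 times for the tandem copies (155 against 472 FPKM) and 0.290 times for the chromosome 2 copy, as were 31.5% of all genes. The median gene in roots moved by -0.69 on the log2 scale, and relative to it 1 of the 6 was past the rule. The untreated nuclear library is the shallowest of the long RNA libraries, at 24.6 M reads, but its lowest tandem copy still rests on 20919 reads.

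In small RNA the loci rose in cold and high light, where few other genes did. In cold each tandem copy was at 4.60 times the untreated level (4648 against 1009 FPKM, intervals 4634 to 4662 and 1002 to 1017) and the chromosome 2 copy at 3.88 times. All 6 were past the rule upward, and with them 1.1% of the 1094 genes compared, that is 12 genes in all, the 6 loci included. In high light the ratios were 2.47 and 2.22 (6 of 6 loci; 1.47% of all genes, 18 in number). Drought gave 1.88 and 2.00, so that the chromosome 2 copy lay just past the rule and the tandem copies just short of it (0.915% of all genes upward). In heat the ratios were 1.31 and 1.41, in high salt 1.04 and 1.07, in roots 1.05 and 1.14 and in leaves 1.61 and 1.55. None of the 6 was past the rule in those 4, where 23.7%, 5.81%, 24.3% and 14.6% of all genes were, in either direction. The median gene was lower than in untreated seedlings in all 7 comparisons of small RNA, by between 0.18 and 0.87 on the log2 scale. Since the 5 tandem copies have identical values here, 6 of 6 stands for 2 separate measurements at most.

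**Figure D5:**
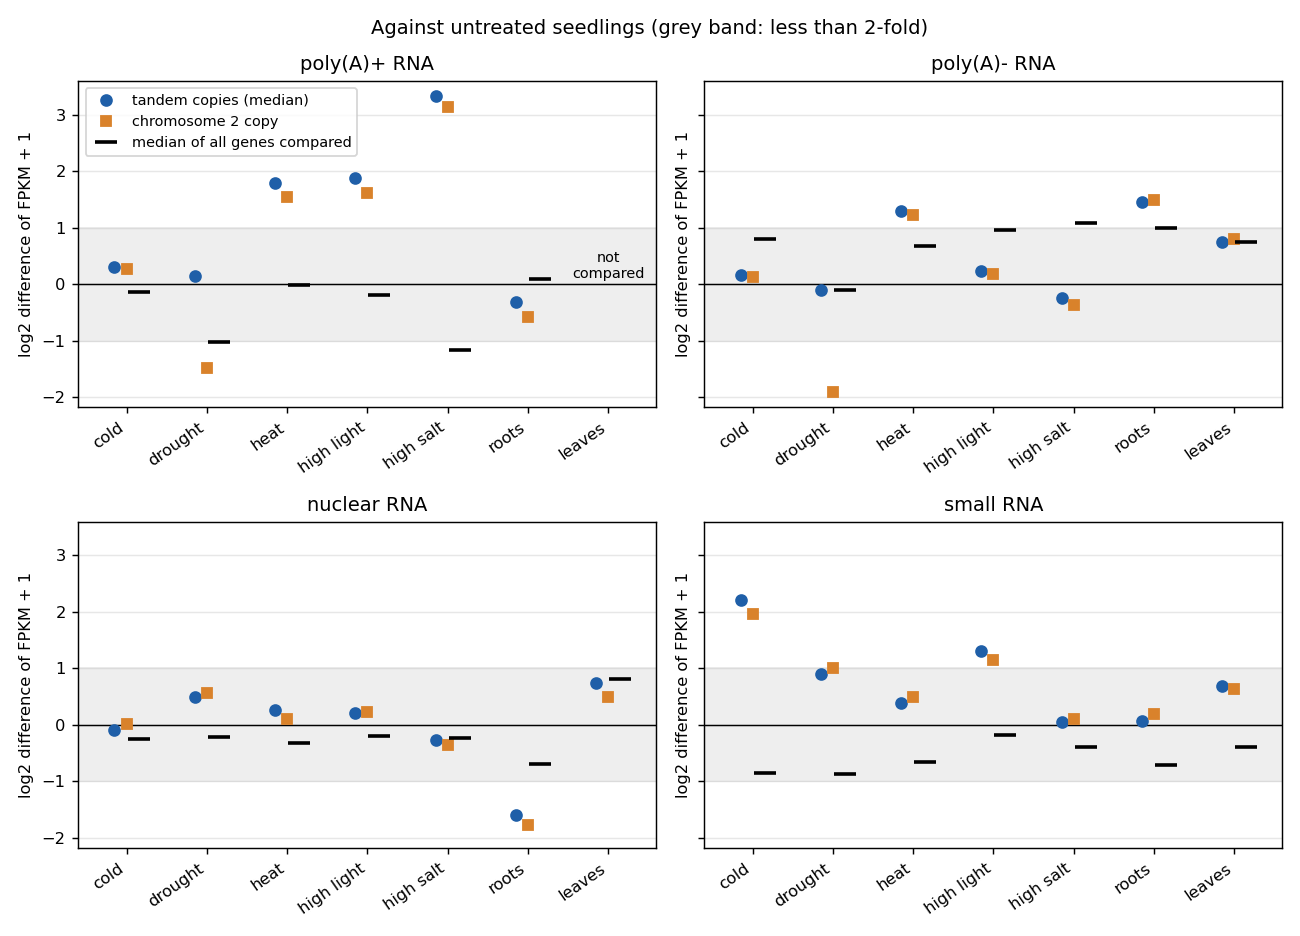
Log2 difference of FPKM + 1 from untreated seedlings, by kind of RNA, for the median of the tandem copies (circles), the chromosome 2 copy (squares) and the median of all genes compared (bars). The grey band is less than 2-fold, and leaves are not compared in poly(A)+ RNA because of the disputed heading. All the loci lie above the band in heat, high light and high salt in poly(A)+ RNA, in heat and roots in poly(A)- RNA and in cold and high light in small RNA, and below it in roots in nuclear RNA.

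Each 1811 nt locus has 2 further listed loci on its strand, 12 in all, and no other listed gene lies within 10000 nt of a copy. On chromosome 9 the longer of them starts 97 nt into the copy, has 1719 nt and ends 5 nt past it (EPlOSAG00000019932, EPlOSAG00000019921, EPlOSAG00000019910, EPlOSAG00000019899 and EPlOSAG00000019888, from EPlOSAG00000008521 to EPlOSAG00000008517). On chromosome 2 it starts 207 nt in, has 1609 nt and also ends 5 nt past the copy (EPlOSAG00000019877). The shorter ones start 390 nt in and have 1398 or 1391 nt (EPlOSAG00000008547 to EPlOSAG00000008552). With the 1719 nt loci just outside the length rule, the next EPlOSAG gene in length has 1690 nt and lies on chromosome 12.

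The nested loci had almost none of the signal. The 1398 and 1391 nt loci were listed at 0 in all 36 columns. The 1719 nt loci had at most 0.148 FPKM in poly(A)+, 0.0618 in poly(A)- and 0.450 in nuclear RNA, although 1714 of their 1719 nt lie inside a copy of far higher FPKM. In small RNA all 5 had identical values in 9 of 9 columns, as the tandem copies did, between 3.30 FPKM in heat and 16.6 in untreated seedlings, which is 0.249% to 1.64% of the level of a tandem copy. Their order over conditions was not that of the copies: untreated seedlings had the highest level of the 1719 nt loci and the lowest of the copies, and cold had 12.9 against 4648 FPKM. The 1609 nt locus was listed at 0 in long RNA and had 0.0874 to 1.44 FPKM in small RNA. The sources used here do not say how reads were divided between overlapping loci, so the levels of the 1811 nt loci may hold reads that the nested loci share.

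By Pearson's r of log2(FPKM + 1) over the 23 long RNA columns with undisputed headings, 5 genes were most like the median of the 6 loci among 3977 ranked. These r are descriptions over libraries of 3 kinds, and a difference between the kinds enters them. The genes were picked for likeness over these columns, so shared maxima follow in part from the choice. EPlOSAG00000019866, of 572 nt on the - strand of chromosome 4 (32927659 to 32928231), had r = 0.88. It ran from 12.7 FPKM in untreated seedlings to 72.3 in high salt in poly(A)+ RNA and from 70.2 in drought to 244 in roots in poly(A)- RNA. Its poly(A)+ maximum fell on the same condition as that of the copies, and so did its poly(A)- maximum. XLOC_029550, of 379 nt on the - strand of chromosome 12 (13404628 to 13405007), had r = 0.85, and XLOC_053321, of 362 nt on the + strand of chromosome 4 (16289096 to 16289458), had r = 0.83.

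EPlOSAG00000045065, of 240 nt on the + strand of chromosome 1 (24615787 to 24616027), had r = 0.81. Its levels reached 896 FPKM in poly(A)- RNA of roots and 1489 in nuclear RNA of leaves, above the copies in the latter. XLOC_010108, of 3939 nt on the - strand of chromosome 1 (33549110 to 33553049), had r = 0.79. All 5 had their highest poly(A)- level in roots, and 4 of the 5 their highest poly(A)+ level in high salt, the other being XLOC_029550 with high light. As the genes were chosen by r over these same columns, such shared maxima are not separate evidence of likeness. The ranking depends on the measure. By Spearman's rho over the same 23 columns EPlOSAG00000045065 ranked 21 and the other 4 ranked 1 to 6. By Pearson's r over all 27 long RNA columns EPlOSAG00000019866 and EPlOSAG00000045065 ranked 1 and 2, XLOC_029550 ranked 9, XLOC_053321 ranked 13 and XLOC_010108 ranked 24. In small RNA the 3 XLOC loci averaged 0.0973 to 0.195 FPKM, and the likeness was computed over long RNA alone.

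The 4 columns of disputed heading held the loci at levels inside or near the range of the kind under which the annotated list gives them. The column headed poly(A)+ RNA of leaves had a tandem median of 78.1 FPKM and 75.4 for the chromosome 2 copy, and the same read value stands under poly(A)+ RNA of panicles in the other list. The column headed poly(A)+ RNA of panicles had 55.5 and 52.6 FPKM, the lowest tandem level of all 36 columns, and its read value stands under nuclear RNA of panicles in the other list. The column headed poly(A)- RNA of panicles had 1601 and 1774 FPKM and stands under poly(A)+ RNA of leaves there. The column headed nuclear RNA of panicles had 876 and 952 FPKM and stands under poly(A)- RNA of panicles there. With columns as headed in the annotated list, leaves and panicles would have poly(A)- to poly(A)+ ratios of 15.2 and 28.9 for the tandem copies, below and above that of roots (27.9). With the headings of the other list they would have 0.739 and 11.2, so leaves would join high salt below equality. The nuclear to poly(A)+ ratios would be 10.04 in leaves and 15.8 in panicles under the annotated list, and 0.489 and 0.711 under the other. The nuclear to poly(A)- ratio of panicles would be 0.547 or 0.0633. In the limma fit to 9 conditions with the headings of the other list, poly(A)- exceeded poly(A)+ RNA in 7 of 9 conditions for each of the 6 loci, and nuclear exceeded poly(A)+ RNA in 6 of 9.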

How the data were processed

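RNA of 9 conditions was sequenced as poly(A)+, poly(A)-, nuclear and small RNA, and 36 columns of FPKM in both deposited lists were used. Per the file headers, the authors deposited FPKM per gene, and IRGSP-1.0, TopHat2 and DESeq2 appear in the submitters' processing notes with no role. The sources used here do not give the read counter or the handling of multi-mapping reads. Per the labels' protocols, libraries were strand-specific (dUTP). FPKM times length came in steps of 1 read in each column (100% of 34159 values of up to 200 reads, within 0.05 reads), which gave reads and depth. In the 32 columns with agreeing headings the steps of both lists agreed within 3.7e-05%, and in the other 4 they differed by at least 5.82%.

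The members and lists were chosen with earlier results of these data known. Fractions were compared with limma 3.58.1 (R 4.3.3) on log2(FPKM + 1), which understates changes of low genes, with condition as a block, a trended prior, genes that reached 1 FPKM in 3 or more tested libraries and p-values adjusted by Benjamini-Hochberg over all genes tested. Most of the weight in each p-value comes from the prior, with 187 degrees of freedom to 6 residual ones in poly(A)- against poly(A)+, 23.4 to 6 in nuclear against poly(A)+ and 137 to 7 in nuclear against poly(A)- RNA. The script was tested on simulated data. The design held 9 conditions, and the disputed headings left 7 or 8. Kinds of RNA of 1 condition share its label and, per the labels' protocols, the extraction of whole cell RNA, which is where the block comes from. Single columns were compared by size. Named genes were the 6 loci, all listed genes within 10000 nt of them and the 5 most alike. Alternatives were another pseudocount, filter, scaling, prior, fold limit and reading of the headings, no block, each condition left out and, chosen after seeing the data, the sum over the 6 loci. Python 3.11.15 with pandas 2.3.3, numpy 2.4.6 and scipy 1.17.1 was used for the rest.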

Additional observations from a re-analysis of the deposited data

Results flagged for a closer look

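Over the conditions of each kind of RNA with undisputed headings, the level of the tandem copies, that of the chromosome 2 copy and their ratio gave 12 sets of 7 to 9 values. In 6 of them 1 condition stood further from its neighbour than the 95% limit of Dixon's range test allows. For separate sets of normally distributed replicates, chance would give about 1 set in 20. These sets are not separate, since the ratio is made from both levels and the same condition can stand apart in both. In poly(A)+ RNA, high salt stood apart with 889 FPKM for the tandem copies and 882 for the chromosome 2 copy. In small RNA, cold stood apart with 4648 and 4983 FPKM. The ratio of the chromosome 2 copy to the tandem copies stood apart in drought, at 0.364 in poly(A)+ and 0.295 in poly(A)- RNA. The conditions of a set are different treatments and tissues and not replicates.

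The 4 columns of disputed heading, used in no main comparison, held tandem medians of 78.1, 55.5, 1601 and 876 FPKM under the annotated headings poly(A)+ leaves, poly(A)+ panicles, poly(A)- panicles and nuclear panicles.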

How the results depend on the processing

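The excess of poly(A)- over poly(A)+ RNA was called for all 6 loci under every alternative run, leave-one-out fits included (6 to 6), with log2 differences of 1.89 to 3.97. For nuclear against poly(A)+ RNA the count fell from 6 to 1, the chromosome 2 copy, with no filter, with no replicate block, under the headings of the other list and in the exact sign-flip permutation test. In the 3 limma fits among these, 6, 1 and 1 loci had an unadjusted p under 0.05. Of all genes these fits called 29 of 5630, 27 of 2786 and 15 of 3166 higher, against 35 of 2786 in the main fit. Leaving out 1 condition gave 1 to 6 loci. For nuclear against poly(A)- RNA the count fell from 5 to 0 in limma with no filter, with centred libraries and with 9 conditions under either set of headings. In these fits 5, 0, 5 and 5 loci had an unadjusted p under 0.05. Of all genes they called 0 of 5450, 73 of 959, 73 of 1195 and 43 of 1270 lower, against 161 of 959 in the main fit. Leaving out 1 condition gave 0 to 5 loci. In the exact sign-flip permutation test 5 loci had an unadjusted p under 0.05. The other fits without the replicate block called 6 and 5, as with it. Causes were not tested.

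At a 4-fold limit only high salt in poly(A)+ RNA and cold in small RNA kept a count above 0 (6 and 5), and the other 9 comparisons with a count fell to 0. With the sum over the 6 loci the 3 drought counts of 1 fell to 0. Relative to the median of all genes, drought poly(A)+ RNA turned from 1 locus lower to 5 higher, heat and roots in poly(A)- RNA fell to 0, roots in nuclear RNA fell to 1, high salt in poly(A)- RNA gained 6 lower, and drought, heat and leaves in small RNA gave 6 higher. In small RNA 6 loci stand for 2 separate measurements at most. The share of all genes past the rule was not counted at the 4-fold limit or relative to the median. These counts therefore have no background beside them. A pseudocount of 0.1 changed no count. The median spread between copies was 20.5% in nuclear and 27.2% in small RNA over the 6 loci, and 1.13% and 0% over the 5 tandem copies, because the chromosome 2 copy is left out. The levels by kind of RNA moved by less than their SD. With all 27 long RNA columns r fell by over 0.1 for 3 of the 5 genes most alike. At least 3768 reads stand behind each long RNA value of a copy, which bounds counting error alone, and copies may share reads.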
